A study of Caenorhabditis elegans with 18 samples.

Results

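The 9 genes F21D9.1, arrd-1, fbxb-42, fbxb-44, fbxb-65, fbxb-72, fbxb-104, F58D2.1 and linc-12 were chosen because their raw counts were lowest, at both ages, in worms fed the M05B5.5 plasmid. They are 9 of 46748 genes in the count table, and all 9 were among the 14735 genes that passed a filter on low counts. Because M05B5.5 counts chose them, the M05B5.5 values are a description and carry no test. The choice did not directly set the ages against each other or T14F9.5 against L4440, so these differences were tested. Neighbours and families are set beside the members by M05B5.5 values, which are not free of the choice.

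The animals were N2 hermaphrodites, the standard laboratory wild type, collected whole for RNA sequencing and labelled 1 day or 5 days. The source names do not say from which stage these days count. All animals were exposed to a plasmid: L4440, the empty vector used for RNAi by feeding, M05B5.5, whose name is the sequence name of hlh-2, or T14F9.5, that of lin-32. The series title writes M05B5.3 where the sample labels write M05B5.5. Each of the 6 combinations has 3 libraries, and nothing says whether they came from separate cultures, so p-values measure the spread between these libraries, which may be technical.

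In feeding RNAi, bacteria supply double-stranded RNA that lowers the matching messenger RNA. HLH-2 is the worm member of the E/Daughterless class of basic helix-loop-helix transcription factors, which pairs with tissue-specific partners such as LIN-32. F-box proteins bring substrates to SCF ubiquitin ligases, built on a cullin, a Skp1-type adaptor and a RING protein. Nematode genomes hold large F-box families, named fbxa, fbxb and fbxc in the worm, many of them in clusters of tandem copies.

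Library totals ran from 27024193 to 43016293 counts. In each plasmid's day-5 group, replicate 1 stood apart: on the first principal component (47.3% of the variance) these 3 libraries took values from -22.5 to -19.4, within the day-1 range of -83.0 to -19.4, whereas the remaining 6 took values from 52.9 to 70.2. M05B5.5 day-1 libraries shared no sequencing lane with L4440 or T14F9.5 libraries of day 1, so lane and plasmid cannot be told apart within that age. Across ages, the third M05B5.5 day-1 library shared lane 4 with the third T14F9.5 day-5 library. Marker genes of intestine, muscle, pharynx, neurons, epidermis and germline were all detected in the whole worms, though rol-6, of the epidermis, fell to 2 counts. The larval epidermal marker dpy-7 had at least 22 counts. Among sperm markers, msp-76 and msp-142 fell to 0 counts and spe-11 to 1, whereas ssp-10 had at least 23. Summed epidermal markers ranged from 71.7 to 1345 CPM (counts scaled to the library total), and neuronal ones from 175 to 262 CPM. In every library, day 1 included, vit-2, of the intestine, had at least 7137 CPM and rme-2, of oocytes, at least 1027 CPM. The part of these tissues in the results was not tested.

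The targeted gene hlh-2 had 1627, 553 and 1910 counts in the L4440 libraries at day 1 and 2095, 2409 and 2069 at day 5. Counts in the M05B5.5 libraries were 465, 484 and 457 at day 1 and 725, 1083 and 530 at day 5. Every M05B5.5 library was therefore below every L4440 library once scaled, at both ages. On the log2 scale hlh-2 differed from L4440 by -1.77 ± 0.29 (SE) at day 1, with an adjusted p of 0.0709 in edgeR's quasi-likelihood test, and by -1.41 ± 0.29 at day 5, with an adjusted p of 0.916. In M05B5.5 against L4440 at day 1, the adjustment tied many genes at 0.0709, among them emc-1 (0.71 on the log2 scale) and rbx-1 (-0.48). Of 14735 genes, 4685 had an unadjusted p under 0.05 in that test. The value therefore does not single out the genes given it below. DESeq2 called hlh-2 at both ages, with adjusted p-values of 2.91e-05 at day 1, where it called 20.7% of genes, and 0.0122 at day 5, where it called 0.0545%. Against T14F9.5 at day 1 it was the 1 gene of all those tested (0.00679%) past the threshold of 0.05. By contrast, T14F9.5 feeding came with no loss of lin-32 counts. The gene had 84, 74 and 73 counts there at day 1 against 61, 60 and 65 in L4440, and 38, 174 and 207 at day 5 against 34, 22 and 9, a log2 difference of 2.71 ± 0.67 at day 5 (adjusted p = 1, edgeR). The T14F9.5 label is thus not borne out by a loss of its target, and every comparison with it below is with the libraries so labelled.

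**Figure D1:**
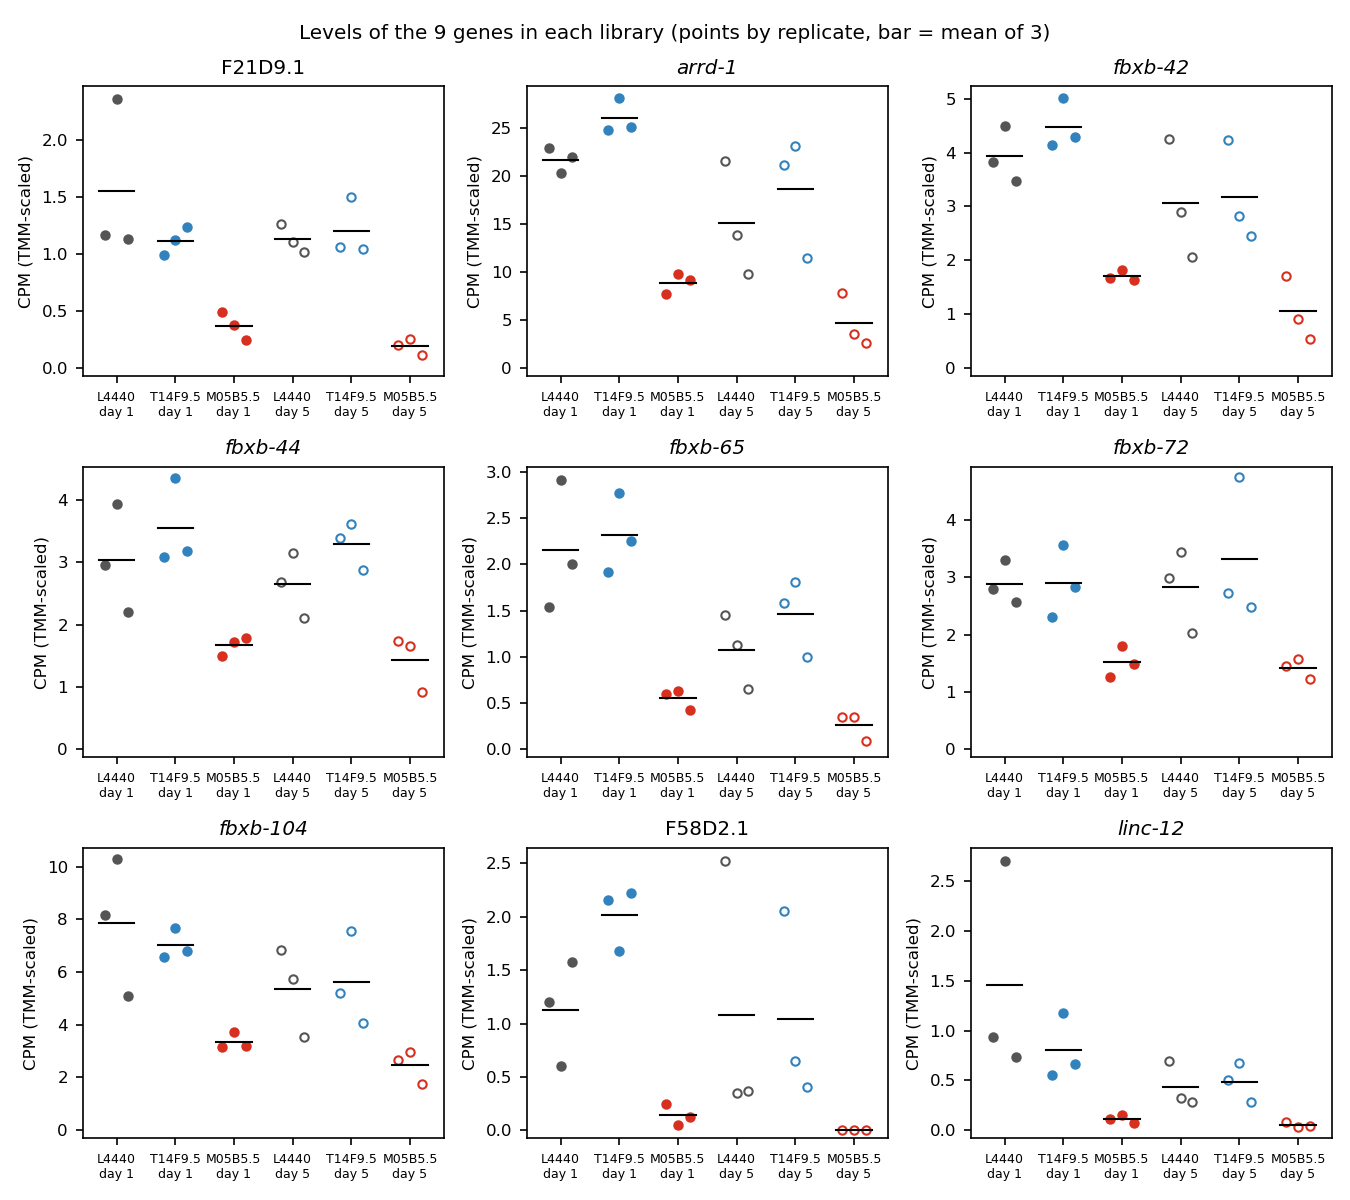
Level of each of the 9 genes, in CPM scaled by TMM factors (y axis), for the 6 combinations of plasmid and age (x axis); points are libraries, filled at day 1 and open at day 5, and bars are means of 3. In each panel the M05B5.5 points lie below all other points of the same age, and F58D2.1 is at 0 in all 3 M05B5.5 libraries at day 5.

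All M05B5.5 libraries lay below all 6 other libraries of the same age, at both ages, for 9 of 9 members. The same held for 22 of 14735 genes tested (0.149%), and the mirror pattern for 4 (0.0271%). At day 1 alone the pattern covered 294 genes (2%) and at day 5 alone 88 (0.597%). The members were picked by these values, so nothing is read from the count. In whole worms, fewer cells that express a gene and less RNA per cell cannot be told apart.

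**Figure D2:**
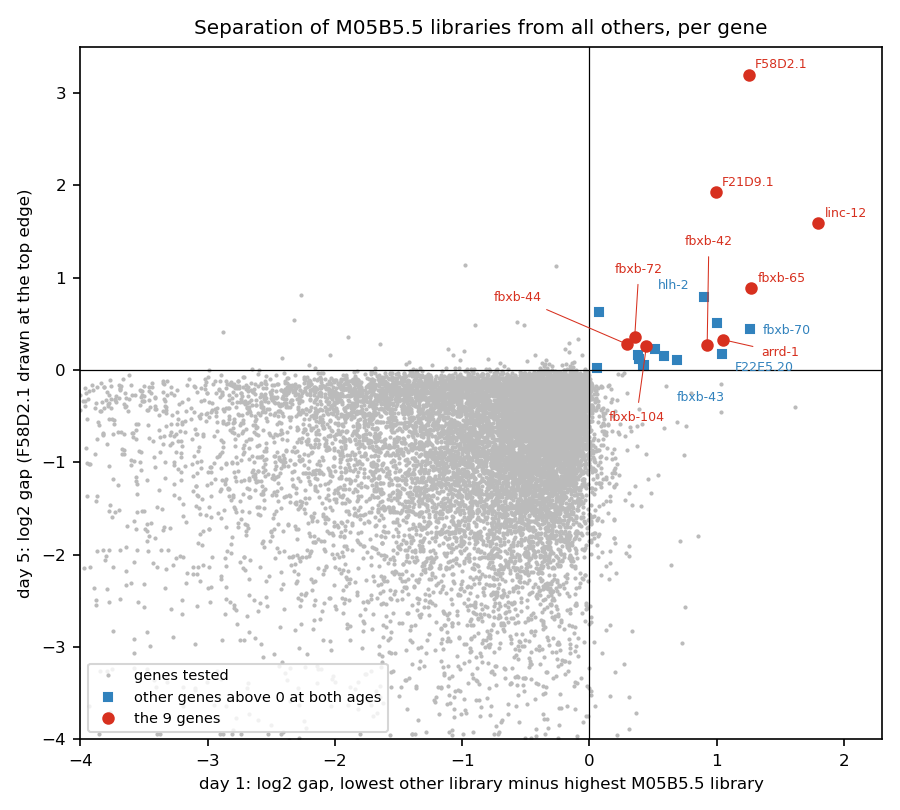
For each gene tested, the log2 gap between the lowest L4440 or T14F9.5 library and the highest M05B5.5 library, at day 1 (x axis) and day 5 (y axis), with 0.01 CPM added; values above 0 mean no overlap. The 9 members and 13 other genes occupy the upper right quadrant, linc-12 has the largest smaller gap (1.59), and genes beyond the axes are not drawn.

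The choice had no sharp edge. Of the members, fbxb-104 lay nearest to it, with gaps of 0.45 at day 1 and 0.26 at day 5. Just outside, fbxb-88 missed by -0.01 at day 1 and -0.02 at day 5. Some genes inside are not members: fbxb-70 had gaps of 1.26 and 0.44, wider at both ages than those of fbxb-104.

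The F-box genes are the largest group of members. The genes fbxb-42 (chromosome II, 1537621 to 1538665, plus strand) and fbxb-44 (1538889 to 1539899, plus strand) are protein-coding neighbours in WBcel235. At day 1 fbxb-42 had 3.82, 4.50 and 3.47 CPM in L4440, 4.14, 5.01 and 4.29 in T14F9.5 and 1.67, 1.82 and 1.64 in M05B5.5. At day 5 the levels were 4.25, 2.90 and 2.05 CPM, then 4.23, 2.83 and 2.45, then 1.70, 0.919 and 0.541. The M05B5.5 libraries were the lowest at each age, and the third day-5 library was the lowest of its group for each plasmid. Mean levels were 3.93 ± 0.52 CPM (SD, n = 3) in L4440 and 1.71 ± 0.096 CPM in M05B5.5 at day 1, a log2 difference of -1.20 ± 0.35 (SE), and -1.55 ± 0.35 at day 5.

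For fbxb-44, day-1 levels were 2.97, 3.94 and 2.20 CPM in L4440, 3.09, 4.36 and 3.19 in T14F9.5 and 1.504, 1.72 and 1.79 in M05B5.5. Day-5 levels were 2.69, 3.15 and 2.11 CPM, then 3.39, 3.62 and 2.89, then 1.73, 1.67 and 0.918. These groups came closer than those of fbxb-42 at day 1, with gaps of 0.29 against 0.93 on the log2 scale. The log2 differences from L4440 were -0.85 ± 0.27 at day 1 and -0.88 ± 0.27 at day 5, the smallest among the members at both ages.

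The gene fbxb-65 (chromosome V, 19329563 to 19330757, plus strand) had 54, 68 and 71 counts in L4440, 66, 94 and 84 in T14F9.5 and 22, 25 and 17 in M05B5.5 at day 1. At day 5 the counts were 52, 46 and 25, then 57, 64 and 39, then 12, 12 and 4. It was lower at day 5 than at day 1 in each plasmid, without overlap between ages in CPM. Its log2 differences from L4440, -1.95 ± 0.41 and -2.06 ± 0.44, were the largest of the 5 fbxb members.

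The gene fbxb-72 (chromosome V, 722646 to 723952, minus strand) had 98, 77 and 91 counts in L4440, 79, 121 and 106 in T14F9.5 and 46, 71 and 60 in M05B5.5 at day 1. At day 5 it had 107, 140 and 78, then 98, 168 and 97, then 50, 55 and 52. Its M05B5.5 level moved little with age, from 1.52 ± 0.27 to 1.42 ± 0.18 CPM. The log2 differences from L4440 were -0.92 ± 0.28 at day 1 and -0.996 ± 0.281 at day 5.

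The gene fbxb-104 (chromosome II, 3475630 to 3477271, minus strand) was the most abundant F-box member per length. Its day-1 counts were 287, 240 and 180 in L4440, 225, 261 and 254 in T14F9.5 and 116, 147 and 128 in M05B5.5. Its day-5 counts were 244, 233 and 136, then 187, 267 and 160, then 92, 103 and 75. The groups did not overlap, and the log2 differences from L4440 were -1.22 ± 0.31 at day 1 and -1.13 ± 0.31 at day 5.

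The gene arrd-1 (chromosome II, 627505 to 628658, plus strand) encodes an arrestin domain protein, of a family related to the arrestins that bind membrane receptors. Counts at day 1 were 802, 473 and 780 in L4440, 851, 953 and 937 in T14F9.5 and 282, 387 and 368 in M05B5.5. Counts at day 5 were 770, 562 and 378, then 761, 819 and 450, then 271, 123 and 113. It was the most abundant member, at 21.02 CPM per kb of exon in L4440 at day 1, and the scaled groups stayed apart at both ages. Its log2 differences from L4440 were -1.29 ± 0.36 and -1.69 ± 0.37.

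F21D9.1 (chromosome V, 19264448 to 19269679, plus strand) is protein-coding. Its day-1 counts were 41, 55 and 40 in L4440, 34, 38 and 46 in T14F9.5 and 18, 15 and 10 in M05B5.5. Its day-5 counts were 45, 45 and 39, then 38, 53 and 41, then 7, 9 and 5. L4440 and T14F9.5 libraries overlapped one another, while M05B5.5 lay well below both. The log2 differences from L4440 were -2.03 ± 0.35 and -2.55 ± 0.37.

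F58D2.1 (chromosome IV, 13183072 to 13186984, plus strand) is annotated as a pseudogene and had the lowest level per length in L4440 at day 1, 0.669 CPM per kb. Counts at day 1 were 42, 14 and 56 in L4440, 74, 57 and 83 in T14F9.5 and 9, 2 and 5 in M05B5.5. At day 5 they were 90, 14 and 14 in L4440, 74, 23 and 16 in T14F9.5 and 0 in each M05B5.5 library. The first day-5 library carried most of the day-5 counts in both L4440 and T14F9.5. At day 1 the log2 difference from L4440 was -3.01 ± 0.90. At day 5, against a floor of 3 counts over the group, M05B5.5 was at least 40.1-fold lower than L4440 and at least 38.8-fold lower than T14F9.5; the floor covers counting error only.

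The long intergenic noncoding RNA linc-12 (chromosome II, 2681408 to 2681658, minus strand, 195 exonic bases) had 33, 63 and 26 counts in L4440, 19, 40 and 25 in T14F9.5 and 4, 6 and 3 in M05B5.5 at day 1. At day 5 it had 25, 13 and 11, then 18, 24 and 11, then 3, 1 and 2. Its M05B5.5 counts were all 6 or below. The log2 differences from L4440 were -3.64 ± 0.60 at day 1 and -2.93 ± 0.70 at day 5, with an SE set by these few counts.

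**Figure D3:**
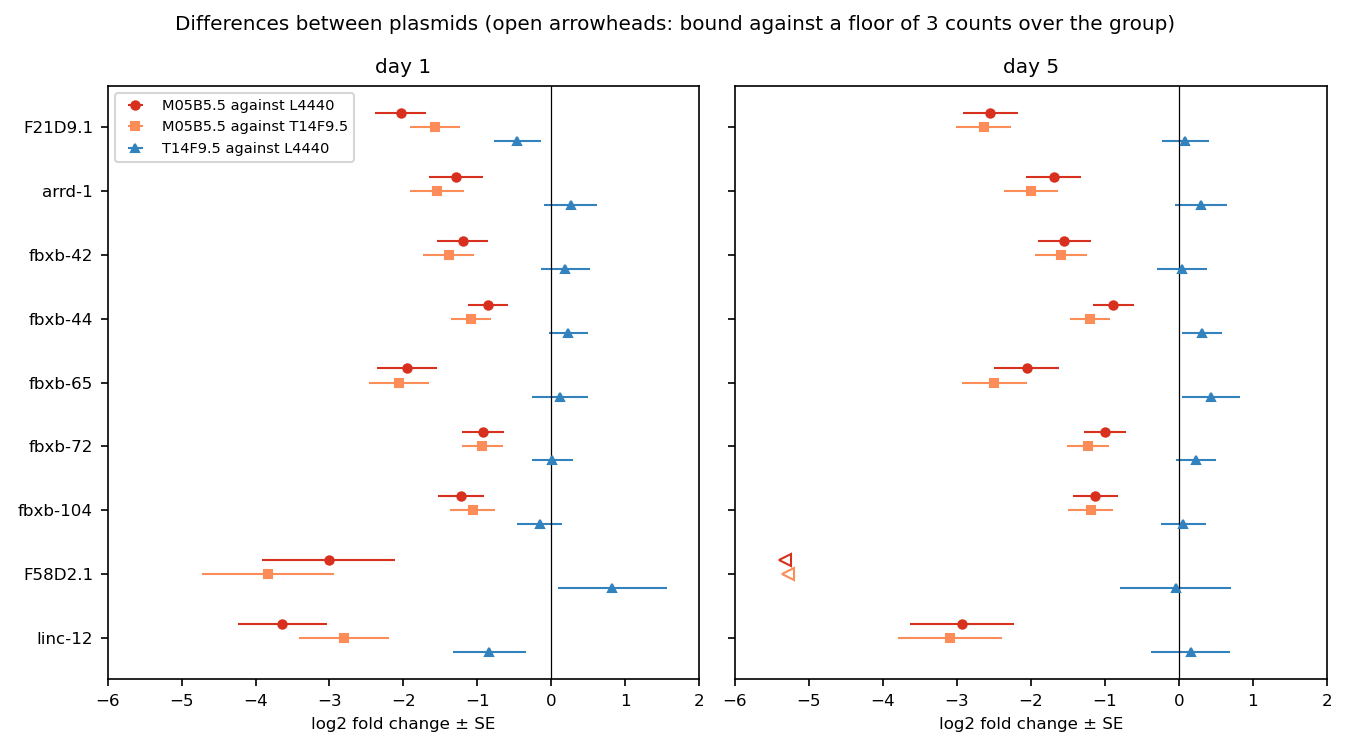
Log2 fold change with its SE (x axis) for each of the 9 genes (y axis) at day 1 and day 5, for M05B5.5 against L4440, M05B5.5 against T14F9.5 and T14F9.5 against L4440. All M05B5.5 points lie left of 0, T14F9.5 points lie on both sides of it, and open arrowheads give the bounds for F58D2.1.

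Within day 5, lanes 5, 6 and 7 each held 1 M05B5.5 library beside 1 or 2 libraries of the other plasmids. In each of the 3 lanes the M05B5.5 library was the lowest for 9 of 9 members, which the choice of members fixes, so nothing about lanes is read from it. With lane as a term, the day-5 log2 difference from L4440 was -0.57 ± 0.30 for fbxb-44, -0.81 ± 0.36 for fbxb-104, -1.30 ± 0.24 for arrd-1 and -2.26 ± 0.42 for F21D9.1.

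The choice did not set T14F9.5 against L4440, so this difference was tested. It did need libraries of both to lie above M05B5.5, which made genes with a strong fall in either less likely to be chosen. The test is therefore not fully free of the choice. None of the 9 members passed at either age in edgeR's test (background 0% of genes at day 1 and 0% at day 5), none had an unadjusted p under 0.05, and DESeq2 called 0, giving no adjusted p for 8 of them at day 1. Over all genes an unadjusted p under 0.05 was found for 3357 at day 1 and 93 at day 5, and DESeq2 called 695 and 0. The members' log2 differences ran from -0.84 (linc-12) to 0.82 (F58D2.1) at day 1, with a median of 0.11 against -0.03 over all genes. At day 5 they ran from -0.04 (F58D2.1) to 0.44 (fbxb-65), with a median of 0.16 against -0.00. For arrd-1 the difference was 0.26 ± 0.35 at day 1 and 0.30 ± 0.35 at day 5, and for fbxb-72 it was 0.01 ± 0.28 and 0.23 ± 0.27. No lane held both L4440 and T14F9.5 at day 5, so a fit with lane as a term reaches that difference only through M05B5.5 libraries, whose values chose the members. It gave larger day-5 differences: 1.75 ± 0.39 for arrd-1, 1.59 ± 0.48 for fbxb-42, 1.36 ± 0.51 for fbxb-44 and 2.65 ± 0.70 for fbxb-65. Those of F21D9.1, fbxb-72, fbxb-104 and linc-12 lay between 0.80 and 1.14, and that of F58D2.1 had no usable SE. None passed, with a lowest adjusted p of 0.396 in edgeR's test. The share of all genes passing in this lane fit is not given here. A p that misses the threshold does not show that the plasmids act alike.

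Age was tested within L4440. There 1 of 9 members passed, linc-12, which fell by 1.72 ± 0.52 on the log2 scale (adjusted p = 0.0412, edgeR), from 1.46 ± 1.08 to 0.435 ± 0.230 CPM, and the libraries of the 2 ages did not overlap. Over all genes 15.8% passed, and 9.11% were lower at day 5. The call held in 10 of 25 alternatives: without the second day-1 L4440 library, which had the highest level, the difference was -0.94 (adjusted p = 0.217, edgeR), and without the first it was -1.95 (adjusted p = 0.0709, edgeR). It was also lost without the second day-5 library (adjusted p = 0.113, edgeR) or the third (adjusted p = 0.155, edgeR). In each of these 4 fits no gene of the whole table was called (0%). DESeq2 called 2 members, linc-12 and fbxb-65 (background 27.5%), where edgeR gave fbxb-65 -0.99 ± 0.39 with an adjusted p of 0.0822. The members' median difference was -0.45 against -0.03 over all genes.

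In T14F9.5 no member passed for age (background 0%), no member had an unadjusted p under 0.05, and DESeq2 called 0 of them. Over all genes 1496 had an unadjusted p under 0.05, and DESeq2 called 11. The test of whether the age difference differs between T14F9.5 and L4440 called no member, and their lowest adjusted p was 0.671 in edgeR's test. It called 0 of all 14735 genes, with a lowest adjusted p of 0.67, so nothing particular to the members is read from it.

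Leaving out replicate 1 of each day-5 group changed the age result. These libraries were singled out in the same data, by first principal component values within the day-1 range. Leaving them out therefore favours larger age differences. In L4440, 5 of 9 members were then lower at day 5, against 18% of genes: arrd-1 with a log2 difference of -0.87 (adjusted p = 0.0263, edgeR), fbxb-42 with -0.66 (0.0424), fbxb-65 with -1.25 (0.0405), F58D2.1 with -1.69 (0.0209) and linc-12 with -2.21 (0.0172). In T14F9.5, 2 of 9 were then lower, against 10.3% of genes: fbxb-42 with a log2 difference of -0.76 (adjusted p = 0.0306, edgeR) and F58D2.1 with -1.94 (0.0105). The first day-5 library held the highest level of F58D2.1 in both, at 2.52 CPM in L4440 beside 0.345 and 0.364, and at 2.06 CPM in T14F9.5 beside 0.650 and 0.409.

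On the plus strand of chromosome II, fbxb-43, fbxb-42 and fbxb-44 lie in tandem, in that order, with 314 and 223 bases between them. The non-member fbxb-43 had 130, 115 and 113 counts in L4440, 151, 159 and 148 in T14F9.5 and 48, 72 and 85 in M05B5.5 at day 1. At day 5 it had 144, 100 and 64, then 141, 84 and 63, then 50, 33 and 18. Its M05B5.5 libraries were also below all others at both ages, and its log2 differences from L4440 were -1.16 ± 0.41 (adjusted p = 0.0879, edgeR) and -1.54 ± 0.43 (adjusted p = 1, edgeR). The other 6 fbxb genes within 50 kb (fbxb-46, fbxb-49, fbxb-50, fbxb-51, fbxb-52 and fbxb-54) were not below all others. For fbxb-52 the log2 differences were -0.52 and -0.45, and for fbxb-46 they were 0.32 and -0.28. Reads shared between near-identical copies could be split or dropped in counting, and how they were treated is not given in the sources used here, so values within this run of genes are uncertain.

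On the right arm of chromosome V, F21D9.1 and fbxb-65 lie 59.9 kb apart. The 7 fbxb genes within 50 kb of fbxb-65 lie between them, and none was below all others. They include fbxb-64, 13.1 kb from fbxb-65, with log2 differences of 1.36 at day 1 and 0.28 at day 5, and fbxb-62, with -0.43 and -0.24. F21D9.1 had 11 fbxb genes within 50 kb, again none below all others. Other genes near F21D9.1, F21D9.11 (11.4 kb) and the pseudogene C43D7.10 (39 kb), were below all others at day 1 only. Their log2 differences were -1.21 and -0.48, and -0.64 and -0.25. Both were named after their values were seen.

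The other members lie apart from such runs, though arrd-1 had 2 fbxb genes within 50 kb. Of these, fbxb-34 (38.4 kb) had log2 differences of 0.44 and -0.0003, and fbxb-14 (44.8 kb) did not pass the filter on low counts. The nearest tested gene to fbxb-72 was icl-1, which encodes the glyoxylate cycle enzyme and lies 0.38 kb away, with log2 differences of -0.05 and -0.17. The only fbxb gene within 50 kb of fbxb-104 was fbxb-112, whose log2 difference was 1.42 at day 1 (adjusted p = 0.0709, edgeR) and 0.21 at day 5. The nearest tested gene to fbxb-104, sdz-32 (0.858 kb), had -1.02 (adjusted p = 0.395, edgeR) and 0.04. Nearest to arrd-1, on the same strand and 1.42 kb away, the pseudogene T04B8.2 had -1.38 ± 0.42 (adjusted p = 0.0709, edgeR) and -1.12, and was below all others at day 1 only; it was named after its values were seen. On the other side of arrd-1, T04B8.5 (2.96 kb) had 0.62 and 0.11.

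Beside linc-12, on the same strand, F34D6.1 lies 0.19 kb away, with log2 differences of 0.69 and -0.66. Farther out, F22E5.20 (7.77 kb) and sri-57 (8.99 kb), 203 bases apart from each other, were below all others at both ages. F22E5.20 had log2 differences of -1.92 (adjusted p = 0.0709, edgeR) and -1.15, and sri-57, of a chemoreceptor family, -1.14 and -1.46. Strand was not marked by the library kit, and no annotated gene overlaps a member.

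Around F58D2.1, F58D2.3 lies 2.25 kb away and had 38 counts over the 3 L4440 libraries, 48 in T14F9.5 and 3 in M05B5.5 at day 1. Its log2 differences were -3.82 ± 0.95 (adjusted p = 0.0709, edgeR) and -2.38 ± 0.96, and it was below all others at day 1 only. F58D2.5, 2.15 kb away on the other side and named after its values were seen, had -2.07 and -2.03 and was also below all others at day 1 only. F58D2.4, 1.02 kb away, had -0.60 and -0.50. Over all members, 123 non-member genes within 50 kb were tested, and 3 of them (2.44%) were below all others at both ages, beside 0.149% of all genes tested, members included. These 3 are fbxb-43, in the run of uncertain values, and F22E5.20 and sri-57, which lie 203 bases apart. For sri-57 the day-5 gap was only 0.04 on the log2 scale. The same pattern chose the members, so nothing is read from this share.

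**Figure D4:**
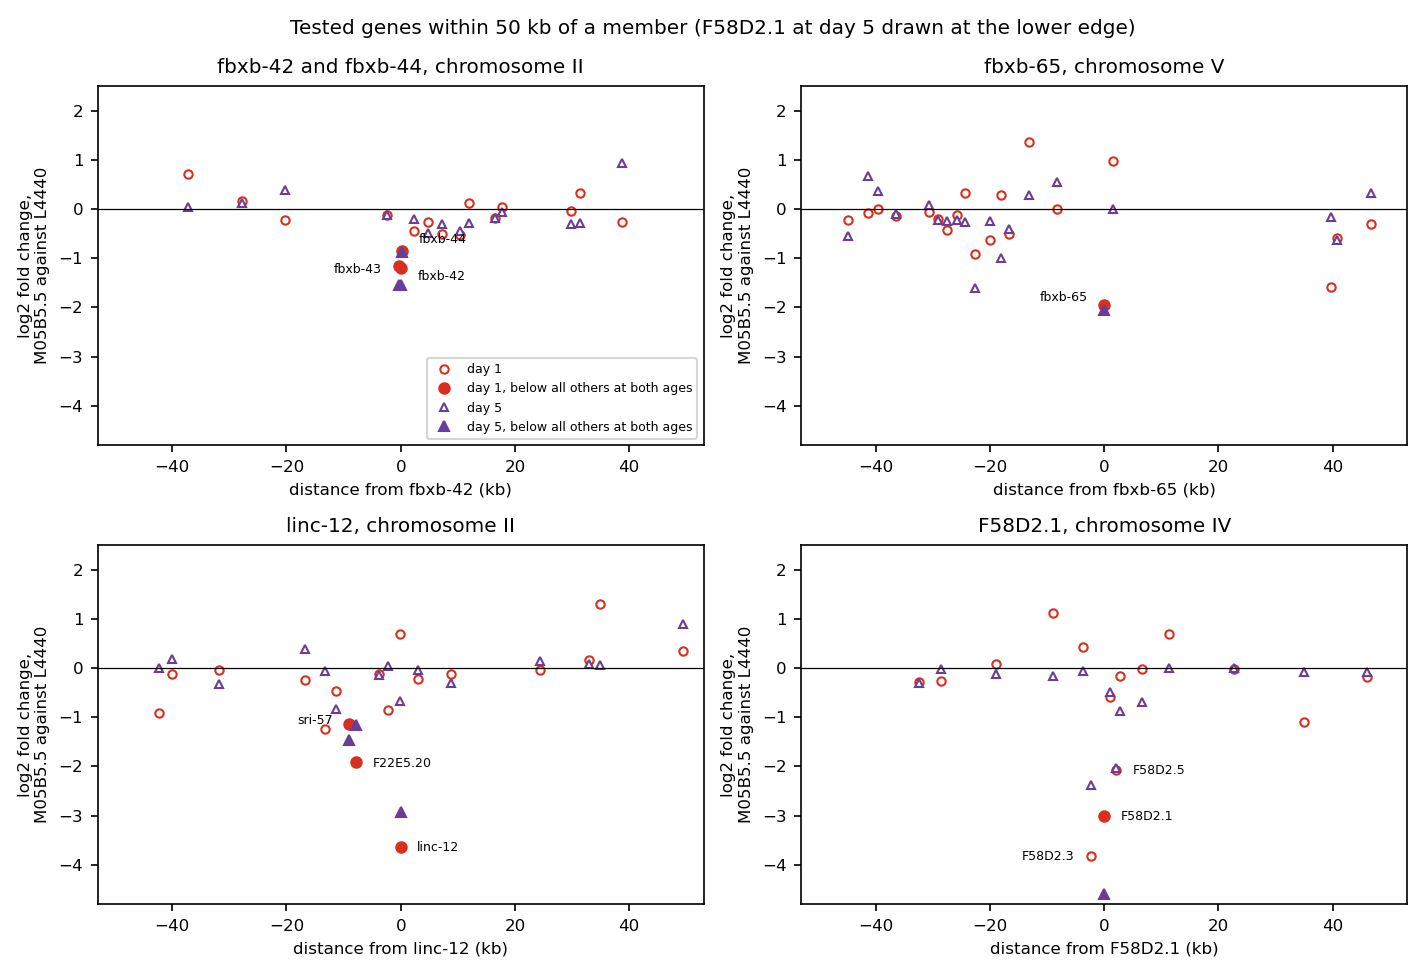
Log2 fold change of M05B5.5 against L4440 (y axis) for tested genes within 50 kb of 4 members, by distance in kb (x axis), at day 1 (circles) and day 5 (triangles); filled symbols are genes below all other libraries at both ages. The filled symbols besides the member are fbxb-43 and fbxb-44 near fbxb-42 and F22E5.20 and sri-57 near linc-12.

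Across the fbxb family, 97 genes were tested and 7 were below all others at both ages: the 5 members, fbxb-43 and fbxb-70. In the related families the count was 0 of 108 fbxa genes and 1 of 36 fbxc genes, fbxc-12, and among 29 genes of the SCF core it was 0. For the 20 other arrd genes and 34 other linc genes tested it was also 0. Since the members were picked by this pattern, these counts describe the choice.

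For the other 92 fbxb genes, which were not chosen, the difference from L4440 was also put through the tests. The choice had taken members from the low end of the family by these same M05B5.5 values. The counts and medians that follow are therefore of a cut set and are not free of the choice. edgeR called 0 at day 1 (background 0%) and 0 at day 5 (background 0%), while 12 and 9 had an unadjusted p under 0.05, of which 8 and 9 were lower. At day 1 these 12 are 13.0% of the list, below the 31.8% of all genes, and at day 5 the 9 are 9.78%, above the 1.36% of all genes. DESeq2 called 5 at day 1, against 20.7% of genes, and 0 at day 5. Those 5 were fbxb-7 and fbxb-43, lower, and fbxb-3, fbxb-103 and fbxb-112, higher. The median log2 difference was -0.12 at day 1 and -0.27 at day 5, against -0.03 and -0.00 over all genes, and 56 and 71 of 92 were below 0. The most abundant per length, fbxb-7, had -0.75 ± 0.20 (adjusted p = 0.0709, edgeR) and -0.08 ± 0.20. The day-5 share was not particular to fbxb. Of 36 fbxc genes, none of them members, 4 (11.1%) had an unadjusted p under 0.05 at day 5 in edgeR's test, all lower. Their family median was -0.18, with 26 below 0. For fbxa it was 3 of 108 (2.78%), 1 of them lower.

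**Figure D5:**
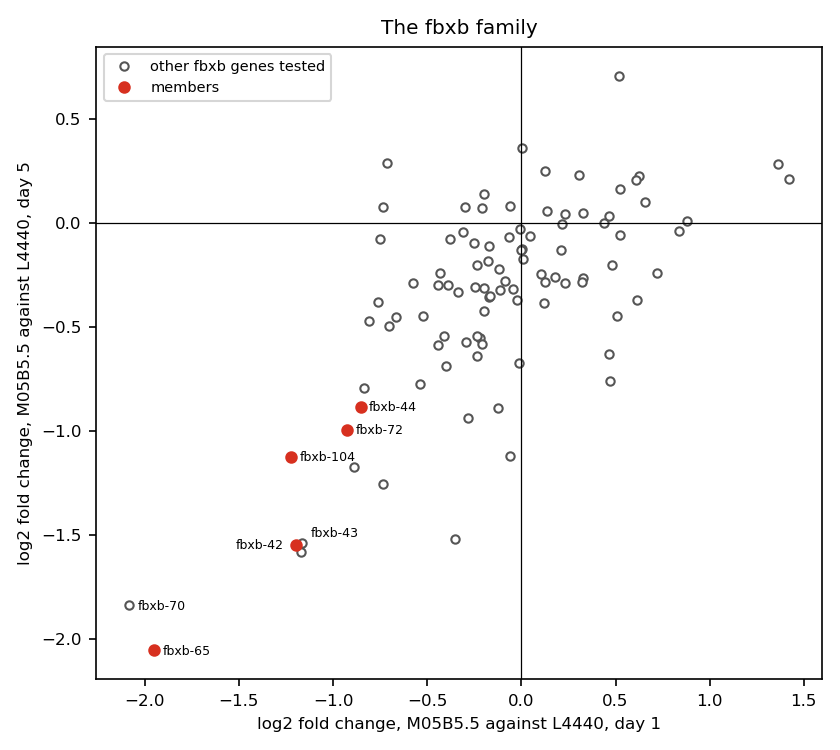
Log2 fold change of M05B5.5 against L4440 at day 1 (x axis) and day 5 (y axis) for the 97 fbxb genes tested; red points are the 5 members. The 92 others have medians of -0.12 and -0.27. Non-members also lie among the members, such as fbxb-43 and fbxb-70. Further examples, not labelled, are fbxb-38 (-1.17 and -1.58) and fbxb-48 (-0.89 and -1.17).

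The genes most like the members, by the smaller of their gaps at the 2 ages over 18 libraries and with at least 1 CPM, were hlh-2, fbxb-70, F22E5.20, Y45G5AM.5, fbxb-43, F35E2.8, Y27F2A.8 and tbb-4, a beta-tubulin gene. At day 1 fbxb-70 had 0.782 ± 0.112 CPM in L4440, 0.808 ± 0.230 in T14F9.5 and 0.182 ± 0.114 in M05B5.5. Y45G5AM.5 had 13.96 ± 7.64, 8.95 ± 1.52 and 5.01 ± 0.44 CPM. The range among L4440 libraries was wide for Y45G5AM.5, with the second library at 22.2 CPM. Of the 22 genes below all others, 10 are on chromosome II, 5 on I, 4 on V, 2 on IV and 1 on X.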

How the data were processed

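RNA was sequenced from 18 whole-worm samples in 6 groups. Libraries came from Illumina's TruSeq RNA kit v2, as stated in the labels' protocols. Per the submitters' processing notes, bcl2fastq 1.8.4, STAR 2.4.1d and featureCounts 1.4.6-p4 were used with WBcel235; strand and multi-mapping settings are not given in the sources used here. The authors deposited raw read counts per gene. A second deposited table of RPKM was not used here.

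The main test was that of edgeR 4.0.16 (R 4.3.3), run on every library together with a term per group, TMM factors, filterByExpr (minimum count 10), robust quasi-likelihood tests, 12 residual degrees of freedom and Benjamini-Hochberg adjustment over 14735 genes at 0.05. The procedure was tested on simulated data with the same spread for all genes, changing only genes more abundant than most members. That simulation held no split of the first day-5 libraries, so nothing about the members is read from it. CPM are TMM-scaled. DESeq2 1.42.0 was an alternative. Figures used matplotlib 3.10.9. Positions come from Ensembl release 115, which lacks 299 of the identifiers. Replicates were numbered in accession order. The labels give a single index and lane to a pair of day-1 libraries (L4440 replicate 1, T14F9.5 replicate 2), and an alternative leaves both out. The members and lists were chosen with earlier results of these data known.

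Named genes are the members, hlh-2, lin-32, the nearest protein-coding or lincRNA gene on each side and fbxb genes within 50 kb, the 8 non-members with the largest smaller gap and at least 1 CPM, and up to 4 called or the most abundant genes of each list. Examples from these sets are printed.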

Additional observations from a re-analysis of the deposited data

How the results depend on the processing

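No paired analysis was possible because the labels give no replicate numbers. The count of members below every other library stayed at 9 in all alternatives run, which the choice of members fixes. Of members called for age in L4440 (1), DESeq2 gave 2 (27.5% of all genes called), no filter 0 (2.8%), a minimum count of 50 gave 0 (21.6%), leaving out the first day-5 libraries 5 (30.1%), a term for them 5 (42.3%), leaving out the day-1 pair labelled with 1 index 0 (0%), and fitting only the compared groups 0 (0%). Leaving out 1 library gave 0 to 1. Where it gave 0, from 0% to 11.5% of all genes were called. The share was 0% when any M05B5.5 day-1 library was left out, though this comparison holds none of them. Nothing about the members is read from these counts. For age in T14F9.5 (0), leaving out the first day-5 libraries gave 2 (17.9%) and a term for them 3 (23.9%). For the other fbxb genes at day 1 (0), DESeq2 gave 5 (20.7%), the term 9 (15.7%), and leaving out 1 library 0 to 9, the 9 being without L4440 day-1 replicate 3 (33.7%); at day 5 (0) the term gave 1 (0.0747%). Differences of uncalled members changed sign when 1 library was left out. For T14F9.5 against L4440 at day 1 they ranged from -0.0770 to 0.38 (fbxb-65), -0.16 to 0.16 (fbxb-72) and -0.38 to 0.0799 (fbxb-104). At day 5 they ranged from -0.10 to 0.18 (F21D9.1), -0.22 to 0.35 (fbxb-42), -0.13 to 0.41 (fbxb-72), -0.22 to 0.27 (fbxb-104), -1.01 to 1.54 (F58D2.1) and -0.16 to 0.67 (linc-12). For F58D2.1 leaving out the first day-5 libraries gave 0.57, and a lane term gave 0.61 with an SE of 10222.6, which carries no information. For age in L4440 they ranged from -0.35 to 0.0433 (fbxb-44), -0.18 to 0.18 (fbxb-72) and -1.68 to 0.34 (F58D2.1). For age in T14F9.5 they ranged from -0.0810 to 0.20 (F21D9.1), -0.20 to 0.0703 (fbxb-44) and -0.16 to 0.37 (fbxb-72). The cause was not tested. Counts below about 10, as for linc-12 and F58D2.1 in M05B5.5, limit precision.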
